A study of Mus musculus with 21 samples.

Results

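A list of 40 genes of cell proliferation, mitosis and DNA replication was followed in heart RNA, all of them found by symbol among the 56691 genes of the deposited table. Members were found by symbol, and the list was drawn up with earlier results of these data known. The 21 RNA-seq libraries fell into 4 groups of mice: Control (no tumor, saline, 5 libraries), DOX (no tumor, doxorubicin, 5 libraries), Tb (subcutaneous tumor of 4T1 mouse breast cancer cells, saline, 6 libraries) and Tb-DOX (the same tumor with doxorubicin, 5 libraries). Doxorubicin (DOX), an anthracycline that poisons DNA topoisomerase II, was injected intraperitoneally at 5 mg/kg once a week, 3 times. The strain, sex and age of the mice are not given in the sources used here, and the tumor cells were injected under the skin. The sample labels enter the 4T-1 line as the source of each of the 21 libraries, while the methods speak of hearts. By markers the libraries were heart: Myh6, the cardiomyocyte myosin heavy chain, lay between 2495 and 4538 FPKM in every library, while Krt18, the leading carcinoma marker, lay between 0.05 and 1.54 FPKM. FPKM is the read count scaled to the exonic length of the gene and to the total count of the library.

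A dividing cell first licenses its replication origins by loading the MCM2-7 helicase, with CDC6 as a loading factor, then copies its DNA with CDC45 at the helicase and PCNA as the sliding clamp. Ribonucleotide reductase (Rrm2) and thymidylate synthase (Tyms) supply the nucleotides. Cyclins E and A with their kinases drive S phase, cyclin B with CDK1 drives mitosis, and Aurora, Polo and BUB kinases control the spindle, whose motors (Kif11, Kif20a, Kif23) and kinetochore proteins (Cenpa, Cenpe, Cenpf) separate the chromosomes. Most adult cardiomyocytes have left the cell cycle, so that dividing cells in an adult heart are largely non-myocytes. Genes of late cell cycle phases are held down in resting cells by the DREAM complex through the CHR promoter element, and many genes of DNA replication carry E2F sites.

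Total depth was 13521200 to 18601445 counts per library. Tb replicate 5 stood apart: it had the highest FPKM of all 21 libraries for 26 of the 40 genes. Control replicate 3 differed from the other Control libraries by a chi-square of 74 to 84.8 per degree of freedom over all genes, against 5.33 to 8.77 among the others, and had the highest erythroid (1094 FPKM) and cardiomyocyte (21145 FPKM) sums of its group. Without it the same number of the 14 genes tested passed in DOX against Control (4), with Mki67 at −2.03 and Cenpa at 1.49. Markers of other cell types differed between the groups. Granulocyte precursor markers summed to 58.3 to 825 FPKM in Tb and 67.4 to 482 in Tb-DOX, against 0.0200 to 0.400 in Control and 1.04 to 5.81 in DOX. Erythroid markers summed to 252 to 1094 FPKM in Control and 527 to 976 in Tb, against 4.77 to 146 in DOX and 2.99 to 40.2 in Tb-DOX. Male germ cell markers, led by Sycp3, summed to 3.93 to 8.77 FPKM in Control and 1.37 to 7.66 in Tb-DOX, and to 0.400 to 1.68 in DOX and Tb. These are bulk libraries, in which fewer cells of a type and less RNA per cell cannot be told apart.

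The 40 genes were expressed at low levels. Per length, only 4 had a mean of at least 2 FPKM over the 21 libraries: the clamp Pcna at 13.3 FPKM, the centromeric histone H3 variant Cenpa at 6.41, and the helicase subunits Mcm4 at 2.90 and Mcm7 at 2.39. Pcna and Cenpa together made up 51.1% of the summed FPKM of the list. The lowest single genes were the kinases Bub1 at 0.0762 and Aurkb at 0.0929 FPKM, and 12 genes had a mean under 0.2. The test took in genes whose mean FPKM reached 0.5, which were 13990 genes and 14 of the 40. The filter ran between Mcm2 at 0.519, Kif20a at 0.527 and Mki67 at 0.577 FPKM on the inside and Nusap1 at 0.481 and Tyms at 0.403 on the outside. Mki67 reached it only through Tb, the group where it was highest. Values for the other 26 come from the same test without a filter, over all 34543 genes above 0 in at least 1 library. An effect is said to pass when its adjusted p was under 0.05 (edgeR quasi-likelihood test, Benjamini-Hochberg over all genes tested).

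To evaluate DOX without a tumor, DOX hearts were compared with Control hearts. Mki67, which encodes the Ki-67 protein of cycling cells, and Top2a, the topoisomerase II isoform of dividing cells, were lower in every DOX library than in any Control library. In contrast, Cenpa, Mcm7 and Pcna were higher. Of the 14 genes tested, 3 passed higher and 1 passed lower, where 18.0% of all 13990 genes passed higher and 18.2% lower. A count of 4 in 14 lies below the background of 36.2% in either direction. Without the filter, 7 of 40 passed (3 higher, 4 lower), where 14.5% of all genes passed, 7.24% higher and 7.22% lower.

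Mki67 measured 0.25, 0.39, 0.38, 0.38 and 0.51 FPKM in the Control libraries and 0.05, 0.03, 0.14, 0.15 and 0.06 in the DOX libraries. Its fold change was −2.01 ± 0.56 on the log2 scale (SE, edgeR, adjusted p = 0.00835), or 4.03-fold lower. These values rest on 40 to 78 counts per Control library and 5 to 21 per DOX library. Top2a measured 0.2, 0.35, 0.17, 0.33 and 0.39 FPKM in Control against 0.03, 0.05, 0.01, 0.03 and 0.03 in DOX. It was 8.04-fold lower (log2 −3.01 ± 0.45, SE; adjusted p = 1.01e-05 in the edgeR test without a filter). The groups did not overlap for either gene, and no DOX library had more than 7 Top2a counts.

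The other genes that fell belong to mitosis. Kif23, a kinesin of the central spindle needed for cytokinesis, measured 0.1, 0.22, 0.1, 0.23 and 0.18 FPKM in Control and 0.06, 0.04, 0.04, 0.03 and 0.1 in DOX. The groups met at 0.1 FPKM, and the log2 fold change was −1.44 ± 0.40 (edgeR without a filter, adjusted p = 0.0115), a call that was lost with the sum of T cell markers as a covariate (−1.38; edgeR, adjusted p = 0.0931). Bub1b, the BUBR1 kinase of the spindle checkpoint, had 7, 9, 1, 4 and 3 counts in Control and 2, 0, 0, 0 and 0 in DOX. Against the depth of the libraries this was a ratio of 0.0848, with a 95% counting interval of 0.00971 to 0.341, and a library at 0 allows up to 3 counts; both cover counting error only. For cyclin B1 (Ccnb1), the partner of CDK1, 3 counts in DOX stood against 24 in Control, a ratio of 0.127 (0.0245 to 0.419), and for Aurora B (Aurkb) 3 against 19, a ratio of 0.161 (0.0304 to 0.546), neither of which passed. The adjusted p of Bub1b, 0.0257 (edgeR without a filter), was no longer under 0.05 in 6 of the 21 fits that left out 1 library, without Control replicate 1 or 2 or DOX replicate 2, 3, 4 or 5.

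**Figure D1:**
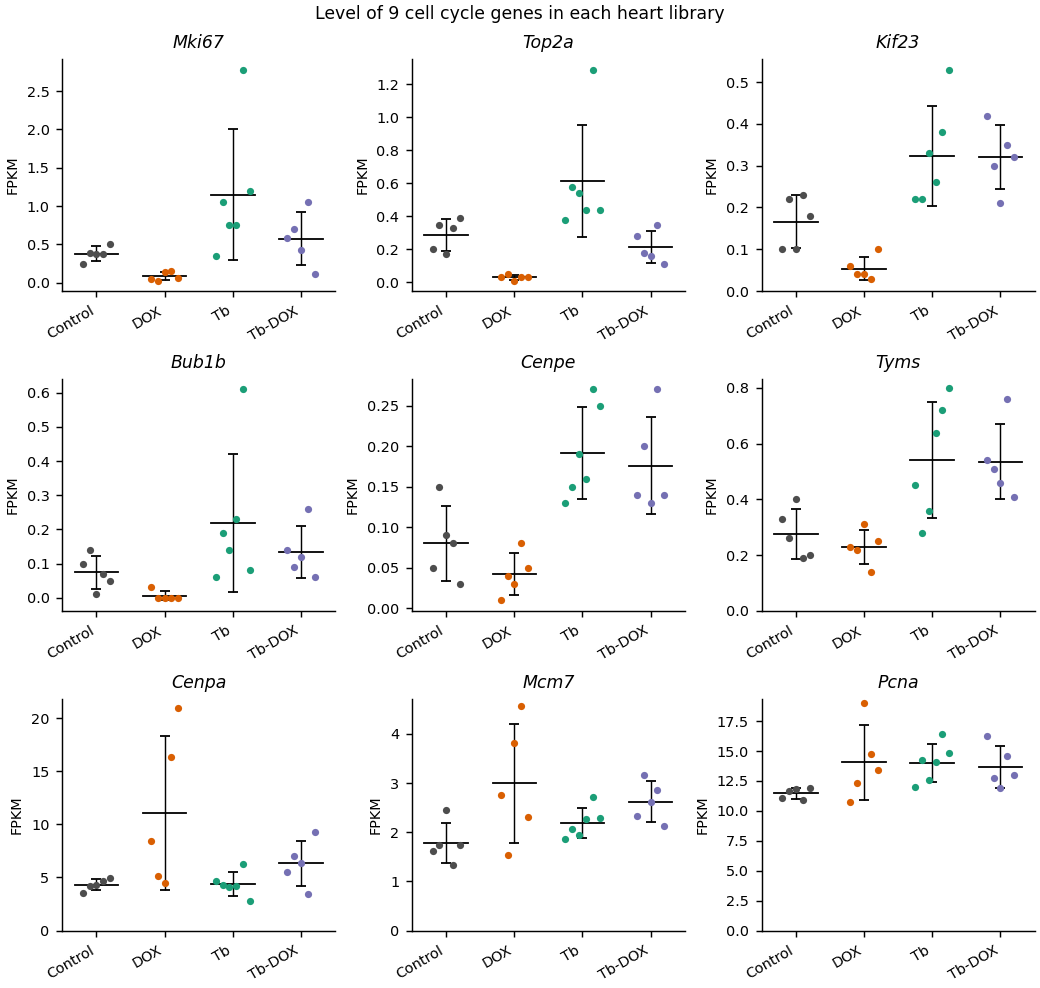
FPKM of 9 of the 40 genes (vertical axis, linear) in each library, by group; each point is 1 library, and the horizontal line and bars give the group mean ± SD. For Mki67 and Top2a all DOX libraries sit below all Control libraries, Tb replicate 5 is the highest point at 2.78 and 1.29 FPKM, and for Cenpa 2 DOX libraries sit at 16.35 and 20.93.

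The 3 genes that rose were among the 4 most abundant of the list, and their DOX libraries were spread widely. Cenpa measured 3.54, 4.22, 4.27, 4.64 and 4.9 FPKM in Control and 8.39, 5.1, 4.45, 16.35 and 20.93 in DOX. Of the 5 DOX libraries 4 lay above the highest Control library, and the fold change was 1.51 ± 0.36 (log2, SE; edgeR, adjusted p = 0.00280). Mcm7 measured 1.61, 1.75, 2.46, 1.34 and 1.75 FPKM in Control and 2.75, 1.53, 3.81, 4.56 and 2.31 in DOX, a log2 fold change of 0.89 ± 0.22 (edgeR, adjusted p = 0.00307). The groups overlapped, and permuting the libraries exactly on log2(FPKM + 0.1) gave an exact p of 0.0873 (two-sided, unadjusted, 1 of 36 such tests). Mcm7 overlaps Cops6 on the opposite strand, at 24.8 ± 3.83 FPKM in Control and 29.4 ± 2.07 in DOX (SD, n = 5 each), and strandedness is not given in the sources used here, so that reads of the pair may have been exchanged. Pcna measured 11.1, 11.66, 11.83, 10.9 and 11.89 FPKM in Control and 10.76, 12.36, 18.98, 14.72 and 13.44 in DOX. Its log2 fold change was 0.42 ± 0.12 (edgeR, adjusted p = 0.00944), but the exact permutation p was 0.0714 and the call was lost at 0.29 when libraries were scaled by their totals alone. That scaling put the median of all genes at −0.14 in this comparison, and its calls over all genes split into 1423 higher and 3526 lower, against 2523 and 2548 here.

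By role, the fit without a filter gave the following values for genes that passed and genes that did not. All 5 cyclins were negative, from −2.61 for Ccnb1 to −0.12 for Ccne2, and none passed. All 6 mitotic kinases were negative, from −3.14 for Bub1b to −0.28 for Bub1. Cdk1, the kinase of mitotic entry, measured 0.0340 ± 0.0288 FPKM in DOX and 0.128 ± 0.0554 in Control (SD, n = 5 each), with no overlap and a log2 fold change of −1.61 (edgeR, adjusted p = 0.112). Among the 9 licensing and fork genes, by contrast, 6 were positive and the median was 0.29. Over all 40 genes the median log2 fold change was −0.57, with 28 negative and 12 positive, against 0.00 over all genes. Over the 14 tested genes the median was 0.30, so that the sign of the list's median depends on whether its low genes are counted. In 4 of the 40 the DOX libraries lay wholly below Control (Mki67, Top2a, Cdk1 and Cdca8), where this held for 8.90% of all genes.

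Markers of other cells moved both ways in the same comparison. All 5 erythroid markers tested, 7 of 8 macrophage markers and 4 of 7 fibroblast markers passed lower, whereas 1 fibroblast marker, 5 of 7 mature neutrophil markers (sums of 8.63 to 84.9 FPKM in DOX and 1.65 to 4.93 in Control) and 5 of 9 cardiomyocyte markers passed higher. Of all genes tested, 18.2% passed lower and 18.0% higher. The macrophage markers summed to 134 to 162 FPKM in Control and 55.7 to 94.5 in DOX. Their part in the fall of Mki67, Top2a, Kif23 and Bub1b was not tested. The T cell gene Cd3e reached 66.7 FPKM in DOX replicate 4, but the other 12 thymocyte and T cell markers summed to 0.540 to 0.880 FPKM in the DOX libraries and 0.320 to 0.940 in Control, with 1 of the 12 at 0 in every DOX library and 4 at 0 in every Control library. With the log2 sum of all 13 markers as a covariate, whose highest values, in DOX replicate 4 and Tb replicate 5, were mostly Cd3e, only Mki67 of the 14 tested still passed (−3.54), and Cenpa was at 1.13, Mcm7 at 0.32 and Pcna at 0.21. Without DOX replicate 4 all 4 still passed, with Cenpa at 1.32, Mcm7 at 0.66, Pcna at 0.39 and Mki67 at −2.30.

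Promoter sequences of 6 of the genes that passed are shown, that of Bub1b being left out, because late mitotic genes and replication genes are known to carry different elements. RefSeq lists promoters (250 bases before to 50 after a start, GRCm38.p6) for 33 of the 40 genes, with 35 starts. Searched on both strands were the CHR (TTTGAA or TTCGAA), the CCAAT box (CCAAT) and 4 forms of the E2F site (TTTCCCGC, TTTGGCGC, TTTCGCGC or TTTGCCGC), and these letters are in capitals below; an E2F site can run into a CCAAT box. Each sequence is given 5′ to 3′ on the strand of the gene, and of the 2 starts listed for Mcm7 the first is shown. The genes that fell come first.
Mki67, chr7:135716330-135716629, minus strand: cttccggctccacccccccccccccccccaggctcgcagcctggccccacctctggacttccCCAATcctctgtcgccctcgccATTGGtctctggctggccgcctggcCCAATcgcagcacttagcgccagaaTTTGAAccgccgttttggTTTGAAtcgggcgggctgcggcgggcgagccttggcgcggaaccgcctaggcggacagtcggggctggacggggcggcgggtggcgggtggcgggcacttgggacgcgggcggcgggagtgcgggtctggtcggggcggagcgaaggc
Top2a, chr11:99024140-99024439, minus strand: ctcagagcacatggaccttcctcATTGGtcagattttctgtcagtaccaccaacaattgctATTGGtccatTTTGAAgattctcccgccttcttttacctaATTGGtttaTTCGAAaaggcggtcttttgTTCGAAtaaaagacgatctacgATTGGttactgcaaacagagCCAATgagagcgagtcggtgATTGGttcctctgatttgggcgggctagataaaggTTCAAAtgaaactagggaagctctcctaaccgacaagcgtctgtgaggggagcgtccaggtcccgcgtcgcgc
Kif23, chr9:61946750-61947049, minus strand: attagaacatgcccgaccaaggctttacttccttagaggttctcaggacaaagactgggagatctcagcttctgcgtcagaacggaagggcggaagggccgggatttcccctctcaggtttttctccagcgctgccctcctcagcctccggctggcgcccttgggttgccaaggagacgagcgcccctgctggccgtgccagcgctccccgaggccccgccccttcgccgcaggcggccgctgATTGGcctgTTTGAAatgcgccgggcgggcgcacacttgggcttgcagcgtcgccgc
Cenpa, chr5:30666636-30666935, plus strand: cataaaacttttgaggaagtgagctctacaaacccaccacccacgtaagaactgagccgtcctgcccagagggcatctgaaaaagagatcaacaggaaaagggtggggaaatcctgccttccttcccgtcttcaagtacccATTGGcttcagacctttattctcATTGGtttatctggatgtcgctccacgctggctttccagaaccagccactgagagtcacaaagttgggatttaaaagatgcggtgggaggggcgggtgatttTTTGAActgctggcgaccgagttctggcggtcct
Mcm7, chr5:138171834-138172133, minus strand: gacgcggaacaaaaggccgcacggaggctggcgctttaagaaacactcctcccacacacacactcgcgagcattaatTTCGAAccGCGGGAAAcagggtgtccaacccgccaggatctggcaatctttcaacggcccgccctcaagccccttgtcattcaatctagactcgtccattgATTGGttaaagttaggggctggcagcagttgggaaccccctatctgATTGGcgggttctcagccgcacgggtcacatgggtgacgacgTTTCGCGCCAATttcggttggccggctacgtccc
Pcna, chr2:132253131-132253430, minus strand: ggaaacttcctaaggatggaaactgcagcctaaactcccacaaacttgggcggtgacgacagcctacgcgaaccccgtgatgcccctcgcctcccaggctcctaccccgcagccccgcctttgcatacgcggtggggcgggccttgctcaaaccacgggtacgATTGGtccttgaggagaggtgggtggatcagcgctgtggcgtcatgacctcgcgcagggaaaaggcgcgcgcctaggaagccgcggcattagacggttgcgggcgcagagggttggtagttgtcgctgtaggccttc

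A CHR stood in 20 of the 35 listed starts (57.1%) and in 19.2% of all 32851 starts. All 20 of these starts also held a CCAAT box, where 7.52% of all starts held both. E2F letters were found in 6 of the 35 starts (17.1%), against 2.26% of all starts. By role, the CHR was found in 5 of 5 starts of mitotic kinases, 7 of 10 of spindle genes and 3 of 9 of licensing genes, and E2F letters in 5 of 9 of licensing genes and 0 of 10 of spindle genes. Among the promoters shown, that of Top2a held 4 CHR and 6 CCAAT matches and that of Mki67 2 and 3. Those of Kif23, which fell, and of Cenpa and Mcm7, which rose, held 1 CHR each, and that of Pcna held none. A match is a run of letters and not a measured binding site.

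To evaluate DOX in tumor-bearing mice, Tb-DOX hearts were compared with Tb hearts, a comparison that shares no library with the one above. Of the 14 genes tested 0 passed in edgeR, where 4.72% of all genes did. At an unadjusted p under 0.05 there were 7 of 14, where 20.4% of all genes had such a p. DESeq2 called Rrm2, the small subunit of ribonucleotide reductase (−1.42, adjusted p = 0.0496), where it called 7.46% of all genes. limma's voom with quality weights called Rrm2 (−1.03) and Cdc45 (0.56), where it called 18.0% of all genes. Without the filter Top2a alone passed, of 40 genes, where 1.67% of all genes passed, 0.944% lower.

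Top2a measured 0.38, 0.58, 0.54, 0.44, 1.29 and 0.44 FPKM in Tb and 0.28, 0.18, 0.16, 0.35 and 0.11 in Tb-DOX. Every Tb-DOX library lay below every Tb library, which held for 0.935% of all genes, and Top2a was 3.01-fold lower (log2 −1.59 ± 0.35, SE; edgeR without a filter, adjusted p = 0.00978). Without Tb replicate 5 it was −1.18 with an adjusted p of 0.0208 (edgeR), and limma on log2(FPKM + 0.1) did not call it (−1.12). Mki67 measured 0.35, 1.06, 0.75, 0.76, 2.78 and 1.2 FPKM in Tb and 0.59, 0.7, 0.43, 1.05 and 0.11 in Tb-DOX. These groups overlapped, and its log2 fold change of −1.07 ± 0.46 did not pass (edgeR, adjusted p = 0.185); without Tb replicate 5 it was −0.51.

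Cenpa, Mcm7 and Pcna, which rose with DOX alone, had log2 fold changes of 0.52 ± 0.34, 0.24 ± 0.20 and −0.05 ± 0.11 here (SE, edgeR), and none passed. Their adjusted p were 0.419, 0.557 and 0.852 (edgeR). Cenpa measured 4.63, 4.3, 4.13, 4.17, 6.24 and 2.81 FPKM in Tb and 5.47, 7.06, 6.4, 3.42 and 9.27 in Tb-DOX. Mcm7 measured 2.19 ± 0.307 FPKM in Tb (SD, n = 6) and 2.62 ± 0.415 in Tb-DOX (SD, n = 5), and Pcna 14.0 ± 1.59 and 13.7 ± 1.75.

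In the fit without a filter 35 of the 40 log2 fold changes were negative, with a median of −0.76 against 0.00 over all genes, and without Tb replicate 5 it was 28 of 40 with a median of −0.38. The following values are with that library. All 5 cyclins (−1.62 to −0.40), all 6 mitotic kinases (−2.33 to −0.10) and 10 of 11 spindle genes were negative, Cenpa being the exception at 0.51. The 5 cyclins summed to 2.45 to 5.64 FPKM in Tb and 1.60 to 2.31 in Tb-DOX, and to 2.17 to 3.10 in Control and 1.39 to 2.13 in DOX. These sums are scaled by library totals alone and led by Ccne2, and none of the 5 cyclins passed in either comparison. Over the 14 genes tested the median was −0.32, and −0.09 without Tb replicate 5. Markers of other cells moved here as well: all 5 erythroid markers tested, 3 of 7 fibroblast and 2 of 8 macrophage markers passed lower in Tb-DOX than in Tb, and 4 of 9 cardiomyocyte markers passed higher, with sums of 17318 to 20179 FPKM against 13296 to 15584. Of all genes tested, 4.72% passed in either direction. B cell markers summed to 0.240 to 1.81 FPKM in Tb-DOX and 1.37 to 3.79 in Tb. The part of these cells in the lower Top2a was not tested.

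**Figure D2:**
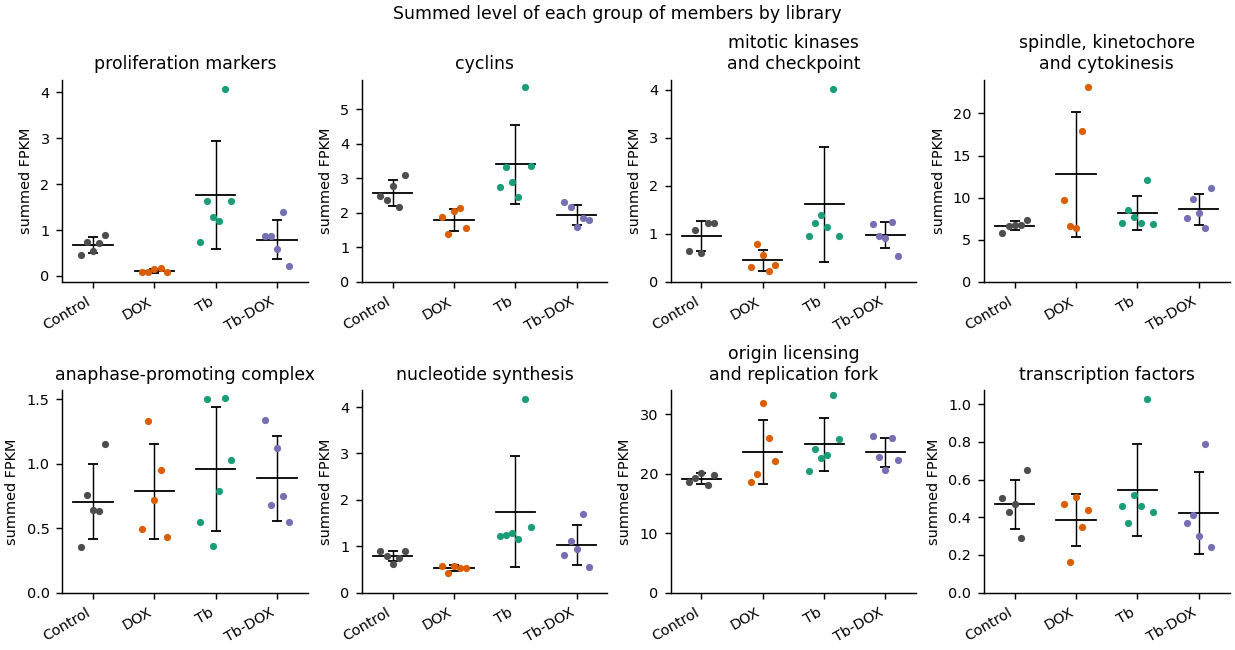
Summed FPKM (vertical axis, linear) of the genes of each role by library; points are libraries, lines and bars the group mean ± SD. Proliferation markers (Mki67 and Top2a) sum to 0.0800 to 0.180 in DOX and 0.450 to 0.900 in Control, and 1 Tb library, replicate 5, is the highest point in 7 of the 8 panels.

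**Figure D3:**
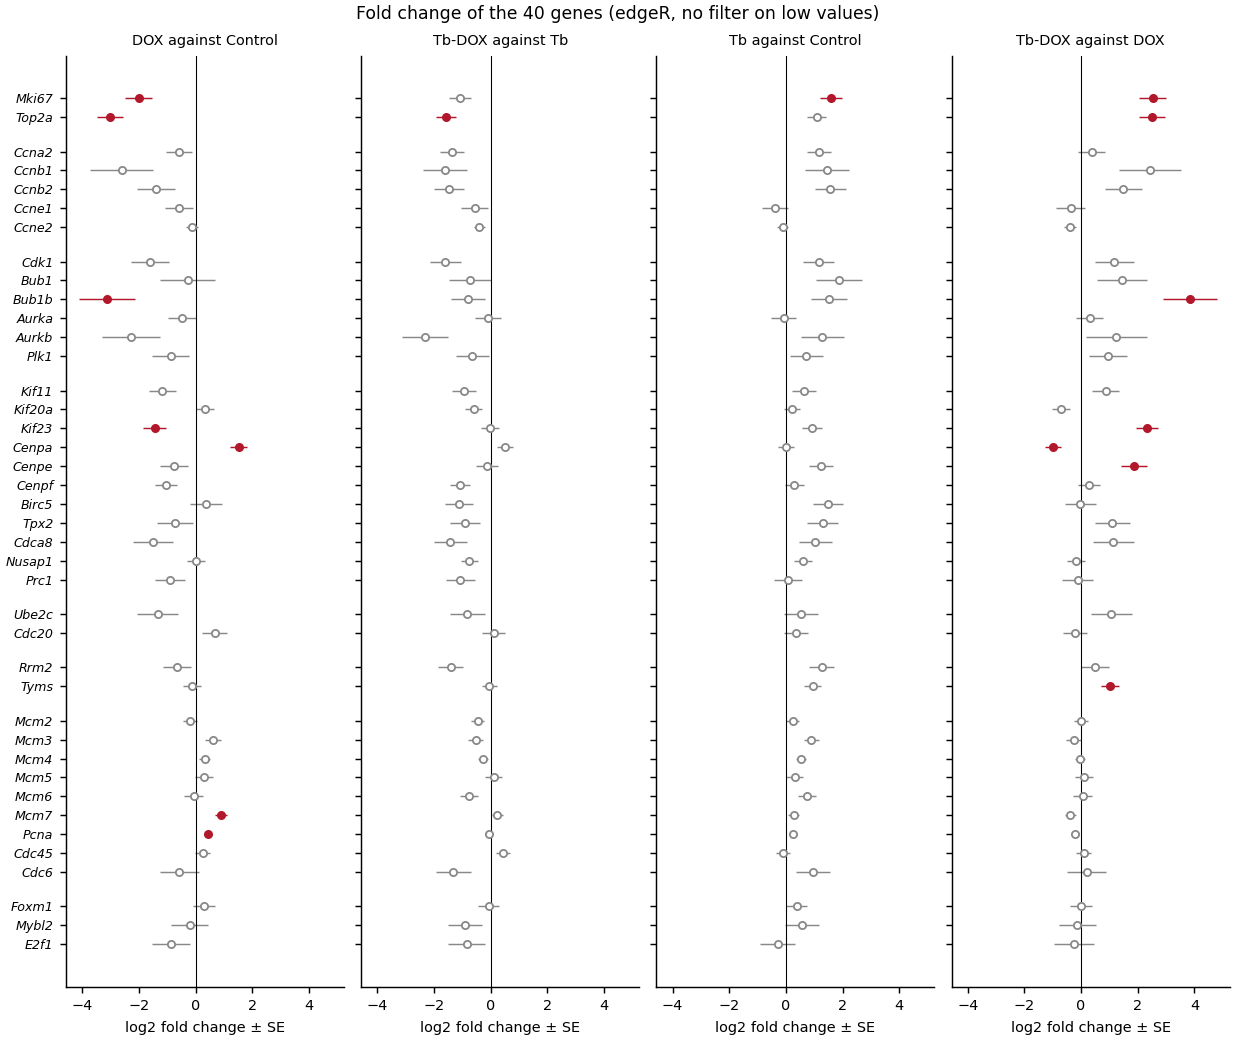
Log2 fold change ± SE (horizontal axis, the same in all panels) of the 40 genes from the fit without a filter, grouped from top to bottom as proliferation markers, cyclins, mitotic kinases, spindle genes, anaphase-promoting complex, nucleotide synthesis, licensing and fork genes, and transcription factors. Filled red points passed; 35 of 40 points lie left of 0 in Tb-DOX against Tb and right of 0 in Tb against Control.

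To evaluate the tumor without DOX, Tb hearts were compared with Control hearts. Mki67 alone passed of the 14 genes tested (higher), where 6.28% of all genes passed. It was among the 14 only through Tb, where its mean was 1.15 FPKM, against 0.382 in Control, 0.0860 in DOX and 0.576 in Tb-DOX. Its log2 fold change was 1.58 ± 0.47 (SE; edgeR, adjusted p = 0.0473), or 2.99-fold higher. The groups overlapped, since Tb replicate 1 at 0.35 FPKM lay within the Control range of 0.25 to 0.51. The call is not firm: it was lost in 13 of the 21 fits that left out 1 library, namely any Control library, DOX replicate 1 or 5, Tb replicate 2, 5 or 6, or Tb-DOX replicate 1, 2 or 3. Without Tb replicate 5 the value was 1.02 (edgeR, adjusted p = 0.167). Without the filter 1 of 40 passed, Mki67 again, where 3.37% of all genes passed, 2.79% higher. With the filter DESeq2 called Mki67 (1.60), Mcm3 (0.90) and Mcm4 (0.54), where it called 8.16% of all genes.

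Most of the other values were positive without passing. In the fit without a filter 35 of 40 log2 fold changes were above 0, with a median of 0.68 against 0.00 over all genes; without Tb replicate 5 it was 31 of 40 with a median of 0.32. With all libraries in the fit, those above 0 took in all 11 spindle genes (0.01 to 1.48) and 8 of 9 licensing and fork genes. The 5 below 0 were Ccne1, Ccne2, Aurka, Cdc45 and E2f1. Of the 40 genes 2 lay wholly above Control, where 2.30% of all genes did so: cyclin B2 (Ccnb2), at 0.39 to 1.4 FPKM against 0.12 to 0.38, and Pcna, at 11.99 to 16.41 against 10.9 to 11.89. Neither passed, with log2 fold changes of 1.57 (edgeR, adjusted p = 0.118) and 0.26 (edgeR, adjusted p = 0.318). Top2a was at 1.09 ± 0.34 and Tyms at 0.94 ± 0.29, with adjusted p of 0.0745 and 0.0664 in edgeR, and without Tb replicate 5 Top2a was at 0.66.

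Granulocyte markers rose in the same comparison. All 7 granulocyte precursor markers tested and all 7 mature neutrophil markers passed higher in Tb than in Control, where 6.28% of all genes passed in either direction. The count of precursor markers leans on the filter. They summed to at most 0.400 FPKM in Control and 5.81 in DOX, and so were tested largely through the groups where they are high. The neutrophil markers summed to 1.65 to 4.93 FPKM in Control and 780 to 7281 in Tb. Of 8 macrophage markers 1 passed, higher, and their sums of 184 to 260 FPKM in Tb lay above the 134 to 162 of Control. B cell markers, too low to be tested, summed to 1.37 to 3.79 FPKM in Tb and 0.440 to 1.09 in Control, and the T cell markers other than Cd3e to 0.850 to 2.26 and 0.320 to 0.940. Within Tb, Mki67 was lowest in replicate 1 (0.35 FPKM), where the granulocyte precursor markers summed to 58.3, and highest in replicate 5 (2.78 FPKM), where they summed to 825. In Tb-DOX it was lowest in replicate 5 (0.11 FPKM), where they summed to 67.4, and highest in replicate 4 (1.05 FPKM), where they summed to 482. Other lists followed the same libraries in part: the T cell markers other than Cd3e were lowest in Tb replicate 1 (0.850 FPKM) and highest in Tb replicate 5 (2.26) and Tb-DOX replicate 4 (1.93), and macrophage markers were highest in Tb-DOX replicate 4 (300 FPKM) and lowest in Tb-DOX replicate 5 (112). Mature neutrophil markers were lowest in Tb replicate 1 (780 FPKM) and Tb-DOX replicate 5 (1187). They were highest in Tb replicate 6 (7281), followed by Tb replicate 5 (6496), and in Tb-DOX replicate 4 (5683). Ngp led the granulocyte precursor sum, at 42.6 to 591 FPKM in Tb. The part of any of these cells in the level of Mki67 was not tested.

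**Figure D4:**
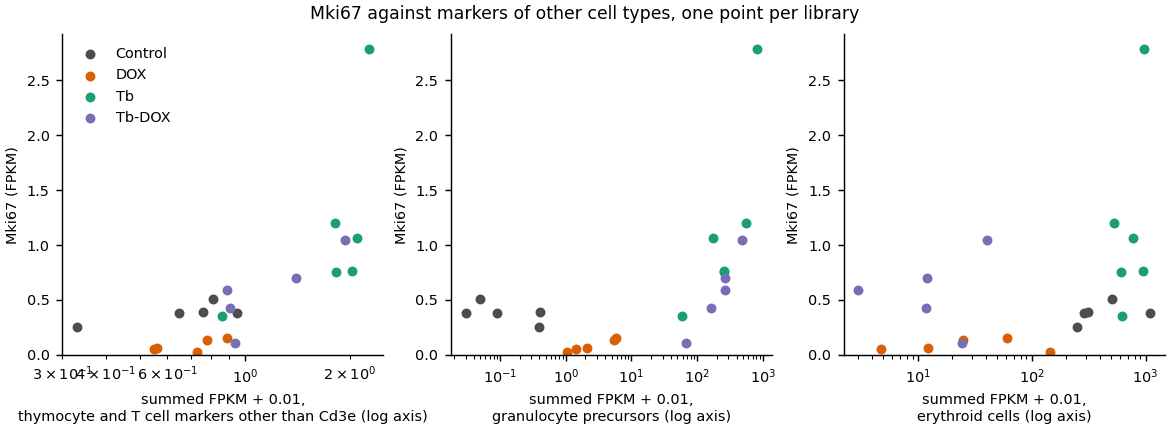
FPKM of Mki67 (vertical axis, linear) against the summed FPKM + 0.01 (horizontal axis, log scale) of markers of thymocytes and T cells without Cd3e, of granulocyte precursors and of erythroid cells; each point is 1 library, colored by group. Tb replicate 5 lies at 2.78 FPKM of Mki67 and 825 FPKM of granulocyte precursor markers, and the DOX libraries lie at 0.03 to 0.15 FPKM of Mki67.

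To compare the tumor-bearing and non-tumor-bearing states under DOX, Tb-DOX hearts were set against DOX hearts. Mki67 passed (higher) of the 14 genes tested, where 17.5% of all genes passed, 9.52% higher. It was 5.74-fold higher (log2 2.52 ± 0.56, SE; edgeR, adjusted p = 0.00358), and only Tb-DOX replicate 5, at 0.11 FPKM, lay within the DOX range. Without the filter 6 of 40 passed higher and 1 lower, where 6.45% of all genes passed, 3.86% higher and 2.59% lower. With the filter DESeq2 called Mki67 and Cenpa (−1.01, adjusted p = 0.0494), where it called 20.6% of all genes.

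The 6 that were higher were Mki67, Top2a, Bub1b, Kif23, Cenpe and Tyms. Over all 40 genes Tb-DOX lay wholly above DOX in 5, the same 6 without Mki67, where this held for 6.73% of all genes. Kif23 measured 0.42, 0.3, 0.21, 0.35 and 0.32 FPKM in Tb-DOX against 0.03 to 0.1 in DOX, a log2 difference of 2.33 ± 0.39 (SE; edgeR, adjusted p = 8.81e-05). Top2a, at 0.11 to 0.35 FPKM against 0.01 to 0.05, differed by 2.50 ± 0.46 (edgeR, adjusted p = 0.000305). Cenpe, a kinetochore motor, measured 0.14, 0.2, 0.13, 0.27 and 0.14 FPKM in Tb-DOX and 0.01, 0.04, 0.03, 0.08 and 0.05 in DOX, a difference of 1.87 ± 0.47 (edgeR, adjusted p = 0.00987). Bub1b had 10, 6, 7, 17 and 4 counts in Tb-DOX and 2 in all DOX libraries together, a ratio of 20.6 with a 95% counting interval of 5.37 to 175.

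Tyms, which makes thymidylate, measured 0.54, 0.51, 0.46, 0.76 and 0.41 FPKM in Tb-DOX and 0.23, 0.22, 0.31, 0.14 and 0.25 in DOX. Its log2 difference was 1.02 ± 0.30 (edgeR without a filter, adjusted p = 0.0345), and this call was lost without DOX replicate 1, 2 or 4 or Tb-DOX replicate 1, 2 or 4. Cenpa moved the other way, at −1.0 ± 0.29 (edgeR, adjusted p = 0.0295) without the filter, but it did not pass among the 13990 genes (−0.99, adjusted p = 0.0582), and without DOX replicate 4 it was −0.81 (edgeR, adjusted p = 0.152). The median over the 40 was 0.23, with 25 positive, and 0.45 with 31 positive when libraries were scaled by their totals, which put the median of all 34543 genes at 0.14. Over the 14 tested it was −0.12, and 0.07 under that scaling, which put the median of the 13990 genes at 0.18 and turned the calls over all genes from 1332 higher and 1110 lower to 2512 and 323. The neutrophil markers moved here too, all 7 passing higher in Tb-DOX than in DOX, as did 4 of 7 granulocyte precursor markers and 5 of 8 macrophage markers. Of all genes, 9.52% passed higher. The precursor markers were tested largely through the tumor-bearing groups, where they are high. Macrophage markers summed to 112 to 300 FPKM in Tb-DOX and 55.7 to 94.5 in DOX. The part of these cells in these differences was not tested.

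Whether DOX acted differently with and without a tumor was tested as the interaction of tumor and DOX. Of the 14 genes 0 passed in edgeR, where 8.94% of all genes did, and 5 had an unadjusted p under 0.05, where 28.9% of all genes had one. DESeq2 called Mcm3 (−1.16, adjusted p = 0.0466) and Pcna (−0.49, adjusted p = 0.0491), where it called 14.2% of all genes. Without the filter 0 of 40 passed, where 3.56% of all genes did, and 8 had an unadjusted p under 0.05, where 18.6% of all genes had one. The interaction was 0.94 ± 0.72 for Mki67 (edgeR, adjusted p = 0.396), −1.0 ± 0.50 for Cenpa (edgeR, adjusted p = 0.186), −0.65 ± 0.30 for Mcm7 (edgeR, adjusted p = 0.151) and −0.47 ± 0.17 for Pcna (edgeR, adjusted p = 0.0727). For Top2a it was 1.42 ± 0.57 without the filter (edgeR, adjusted p = 0.162), and without Tb replicate 5 it was 1.83 with an adjusted p of 0.0255 (edgeR). With all libraries included, edgeR thus called none of the 40 genes as differing in its DOX response between mice with and without a tumor, which does not show that the responses were alike.

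The G1 cyclins and their kinases, which carry cells from rest into the cycle, were read beside the 40 genes. Of 7 tested, 4 passed lower in DOX than in Control, where 18.2% of all genes did: Cdk6, Ccnd2, Cdk4 and Ccnd1. Cdk6 measured 1.32, 1.29, 1.4, 1.27 and 1.47 FPKM in Control and 0.66, 0.32, 0.33, 0.37 and 0.66 in DOX, a log2 fold change of −1.38 ± 0.20 (SE; edgeR, adjusted p = 4.30e-05). Its DOX libraries lay wholly below Control. Over all 7 genes tested this was so in 5, where it held for 19.1% of all genes tested. Ccnd2 was at −0.78, Ccnd1 at −0.75 and Cdk4 at −0.51 on the log2 scale. In Tb-DOX against Tb, 2 of 7 passed, both lower, where 4.72% of all genes passed: Cdk6 at −0.87 ± 0.19 (edgeR, adjusted p = 0.0129), where the groups again did not overlap (2.04% of all genes lay wholly below), and Cdk4 at −0.35 ± 0.10 (edgeR, adjusted p = 0.0442). The D cyclin Ccnd3 was higher with the tumor, by 0.64 in Tb against Control and 0.59 in Tb-DOX against DOX (log2; edgeR, adjusted p = 0.00351 and 0.00618), and Cdk6 was higher by 0.80 in Tb-DOX against DOX (edgeR, adjusted p = 0.00945).

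**Figure D5:**
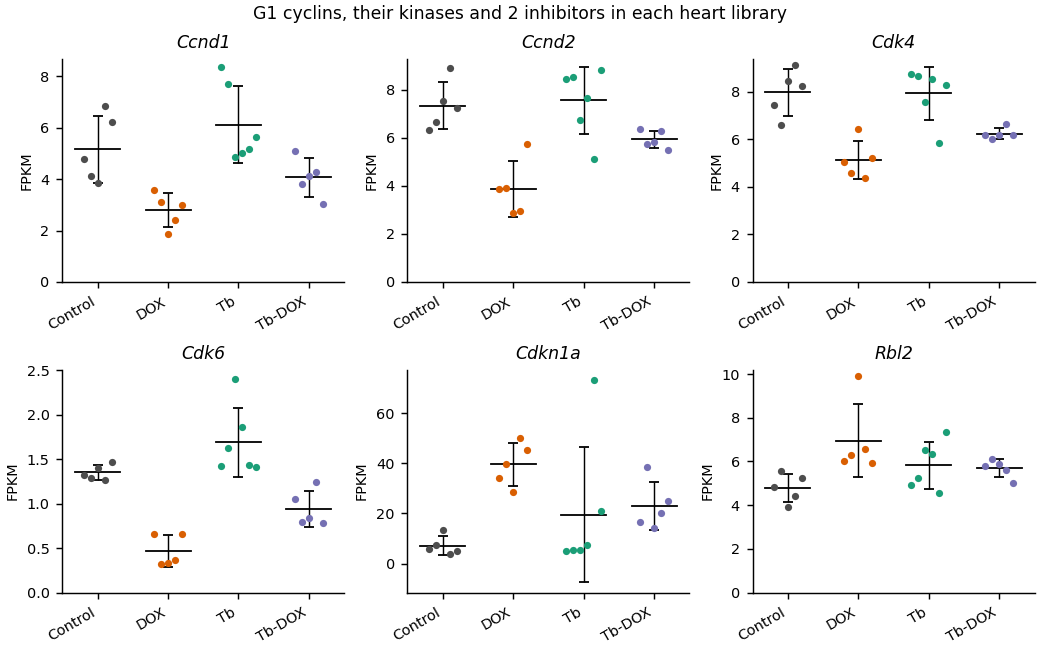
FPKM (vertical axis, linear) of G1 cyclins (Ccnd1, Ccnd2), their kinases (Cdk4, Cdk6) and the inhibitors Cdkn1a and Rbl2 in each library by group, with the group mean ± SD. All DOX libraries of Cdk6 (0.32 to 0.66) lie below Control (1.27 to 1.47), and all DOX libraries of Cdkn1a (28.39 to 50.08) lie above Control (3.87 to 13.35).

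Of 11 inhibitors of the cycle tested, 2 passed higher and 2 lower in DOX against Control, a share near the 36.2% of all genes that passed. Cdkn1a, which encodes the p53-induced inhibitor p21, measured 5.89, 7.49, 13.35, 3.87 and 4.88 FPKM in Control and 34.18, 39.78, 28.39, 50.08 and 45.47 in DOX, 6.28-fold higher without overlap, where 6.13% of all genes lay wholly above (log2 2.65 ± 0.64; edgeR, adjusted p = 0.00293). In Tb-DOX against Tb it was at 0.16 ± 0.57 (edgeR, adjusted p = 0.908), with a single Tb library, replicate 5, at 73.36 FPKM and the other Tb libraries at 5.17 to 20.84. Without Tb replicate 5 it passed in this comparison at 1.46 (edgeR, adjusted p = 0.0190). In Tb-DOX against DOX it was at −0.98 in both fits and passed only without that library (edgeR, adjusted p = 0.272 with it and 0.0436 without), and in Tb against Control it went from 1.51 to 0.22 without passing in either. Its interaction of −2.49 (edgeR, adjusted p = 0.0651) passed without Tb replicate 1, 2 or 3 (−2.69 to −2.70) and was −1.20 without Tb replicate 5. Rbl2, the p130 pocket protein of the DREAM complex, was higher in DOX by 0.66 ± 0.13 (edgeR, adjusted p = 0.000494). Ccng1, a p53 target that encodes cyclin G1, and Cdkn1c, encoding p57, were lower by −0.58 and −0.53 (log2; edgeR, adjusted p = 0.0207 and 0.0467). None of the 11 passed in Tb-DOX against Tb in edgeR, where 4.72% of all genes did, and 4 had an unadjusted p under 0.05, where 20.4% of all genes had one. In Tb against Control, where 6.28% of all genes passed, Cdkn2d (1.01) and Gadd45a (0.99) passed higher and Cdkn1c (−0.96) lower.

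Further genes of DNA replication split in both directions. Of 14 tested, 3 passed higher in DOX than in Control and 4 lower, where 18.0% and 18.2% of all genes did. The 3 that were higher were the single-strand binding subunit Rpa2 (0.53), the origin subunit Orc6 (0.61) and the clamp loader subunit Rfc5 (0.70). The 4 that were lower were the nucleotide enzymes Dut (−0.81) and Tk1 (−0.54), the ligase Lig1 (−0.66) and the maintenance methylation factor Uhrf1 (−1.22). Dut, which removes dUTP, was lower without overlap and measured 5.96 ± 0.948 FPKM in Control and 3.06 ± 0.522 in DOX (SD, n = 5 each), with an adjusted p of 0.000391 in edgeR. In Tb-DOX against Tb, 2 of 14 passed, both lower, where 4.72% of all genes passed: Dut at −0.55 and Tk1 at −0.72 (edgeR, adjusted p = 0.0329 and 0.0335). In Tb against Control 0 of these 14 passed in edgeR, with 2 at an unadjusted p under 0.05, where 6.28% and 20.5% of all genes did so, and in Tb-DOX against DOX Orc6 (−0.65) and Rpa2 (−0.42) passed lower, where 17.5% of all genes passed in either direction.

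Most of the 30 other mitotic genes were too low to be tested, with 6 above the filter. Spc24 of the NDC80 complex was lower in DOX than in Control by −1.26 ± 0.31 (log2, SE; edgeR, adjusted p = 0.00360), and Cks2, a small subunit of cyclin-dependent kinases, was higher in Tb-DOX than in DOX by 2.14 ± 0.71 (edgeR, adjusted p = 0.0413), each the only 1 of the 6 to pass in its comparison, where 36.2% and 17.5% of all genes passed. Of 10 tested genes of the E2F family and the DREAM complex, Rbbp4 (0.31) and Lin52 (0.45) passed higher and E2f6 (−0.38) lower in DOX against Control, a count of 3 that lies below the 36.2% of all genes that passed. In Tb-DOX against DOX, where 17.5% of all genes passed, Rbbp4 (−0.27) and Lin52 (−0.43) passed lower. None of these 10 or 6 passed in Tb-DOX against Tb or in Tb against Control in edgeR, where 4.72% and 6.28% of all genes passed. At an unadjusted p under 0.05 there was 1 E2F or DREAM gene in the first comparison and 0 in the second, and 0 other mitotic genes in either, where 20.4% and 20.5% of all genes had such a p.

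Of the 38 calls made in the 5 comparisons for genes outside the 40, 20 stood in all 21 fits that left out 1 library, among them each call of Cdk6, Ccnd1, Ccnd2 and Ccnd3 and that of Cdkn1a in DOX against Control. The other 18 were lost in at least 1 fit. In DOX against Control these were Cdkn1c (14 of 21 fits), Lig1 (8), E2f6 (6), Tk1 (4), Rfc5 (3), and Ccng1 and Lin52 (1 each, without DOX replicate 4). In Tb-DOX against Tb they were Cdk4 (12), Dut (8) and Tk1 (7), and in Tb against Control Gadd45a (9). In Tb-DOX against DOX they were Cks2 (9), Lin52 (6), Orc6 and Rbbp4 (2 each), and Rpa2 and Rbl2 (1 each, without DOX replicate 3), and for the interaction Rpa2 (2, without Control replicate 2 or DOX replicate 3).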

How the data were processed

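Mouse heart libraries (21) were sequenced as paired-end reads after oligo(dT) enrichment, by the methods, where the labels also allow rRNA depletion. The authors deposited 1 table of read counts per gene and the FPKM made from them; FPKM equalled count per kb of exon and library total in 100% of values (tolerance 0.0051). The submitters' processing notes name cutadapt, FastQC, HISAT2, HTSeq 0.6.1, DESeq2 1.34.0 and the GRCm39 build. Columns of the authors' own comparisons were not used. Depth was 13521200 to 18601445 counts, and strandedness is not given in the sources used here.

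Genes whose mean FPKM reached 0.5 (13990) entered the test of the deposited counts, with TMM scaling and edgeR's quasi-likelihood test (edgeR 4.0.16, limma 3.58.1, DESeq2 1.42.0 in R 4.3.3), with 1 coefficient per group in a single fit of 21 libraries and Benjamini-Hochberg adjustment over all genes tested. A fit of 34543 genes without the filter gave values for the members below it. The filter used the mean over all 21 libraries, also in the fits that left out 1 library. Single genes were also tested by exact two-sided permutation of log2(FPKM + 0.1), where the smallest possible p was 0.00794 for 5 against 5 libraries and 0.00433 for 6 against 5. Counting intervals are exact at 95%. Sequences are from RefSeq (GRCm38.p6), and no coordinates were moved between builds. The methods were tested on simulated data.

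The members and lists were chosen with earlier results of these data known. Values per library are given for Mki67, Top2a and each member that passed. Of each pathway list the rule names up to 3 passing genes by p and always Cdkn1a. The others named within counts of 5 or fewer, and Cdk1, Cdca8, Ccnb1, Ccnb2, Aurkb, E2f2, E2f7 and E2f8, were added after their values were seen. Libraries are assumed to be separate mice, which the labels do not state, so p-values measure the spread between libraries. One result is not reported here. Scaling, tool, filter, covariate and left-out libraries were varied.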

Additional observations from a re-analysis of the deposited data

Results flagged for a closer look

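Tb replicate 5 stood far above the other 5 Tb libraries in 9 values. Mki67 was 2.78 FPKM there against 1.20 in the next library, Top2a 1.29 against 0.580 and Bub1b 0.610 against 0.230. The summed FPKM of the proliferation markers was 4.07 against 1.64, of the cyclins 5.64 against 3.36, of the mitotic kinases 4.02 against 1.39, of the spindle genes 12.1 against 8.49, of the nucleotide synthesis genes 4.17 against 1.41 and of the transcription factors 1.03 against 0.520. These 9 values share genes and a library and are not separate observations. The same library had the highest granulocyte precursor sum, 825 FPKM, and the highest Cdkn1a, 73.36 FPKM, and its carcinoma epithelium markers summed to 2.49 FPKM, against 3.07 in Tb replicate 6 and 0.60 to 0.92 in the other Tb libraries; their part in these values was not tested. In DOX, Bub1b was above 0 in replicate 1 only, at 0.0300 FPKM or 2 counts. In all, 68 groups of libraries were examined in this way. Chance alone sets off some of them, at a rate that was not measured for low counts such as these.

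For 3 of the 48 genes tested of the other cell cycle lists, a share below the 8.94% of all genes that passed, the DOX response differed between mice with and without a tumor by the interaction term (edgeR quasi-likelihood test, Benjamini-Hochberg over 13990 genes). The values were −1.07 for Orc6 (adjusted p = 0.0205), −0.61 for Rpa2 (adjusted p = 0.0282) and −0.69 for Rbl2 (adjusted p = 0.0235). The call of Rpa2 was lost without Control replicate 2 (−0.58) or DOX replicate 3 (−0.53). None of the 3 is among the 40 genes described first.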

How the results depend on the processing

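Low counts limit most of the list: 26 of 40 genes lay below the filter, and what passed depended on it. For DOX against Control the number passing was 7 without a filter, 2 with limma on log2(FPKM + 1), 2 when the log2 fold change also had to reach 1 in size and 1 with the T cell marker covariate, and the median was −0.57 without a filter and −0.12 at a mean count of at least 10, a filter added after seeing the data. For Tb-DOX against Tb it was 1 with DESeq2, without a filter and at a mean count of 10, and 2 with voom quality weights, with medians of −0.76 without a filter and 0.10 at a mean FPKM of at least 2. For Tb against Control it was 3 with DESeq2, 2 at a mean count of 10 and 0 with voom quality weights, either limma fit, robust moderation, only the groups compared, the covariate, a mean FPKM of 2, an adjusted p under 0.01, or without both DOX replicate 4 and Tb replicate 5 (chosen after seeing the data), and the median was 0.68 without a filter. For Tb-DOX against DOX it was 2 with DESeq2, 5 at a mean count of 10, 7 without a filter and 0 with limma on log2(FPKM + 1) or a mean FPKM of 2, and the median was 0.23 without a filter. For the interaction DESeq2 called 2, and the median was −0.17 with the covariate and −0.19 without a filter. On log2(FPKM + 1) the interaction turned to −0.05 for Mki67 and −0.07 for Top2a. Calls of named genes lost on that scale were Mki67 in DOX against Control (−0.35) and Tb-DOX against DOX (0.51), Top2a in Tb-DOX against Tb (−0.39) and Tb-DOX against DOX (0.24), Kif23 (−0.14) and Pcna (0.25) in DOX against Control, and Bub1b in both its comparisons (−0.09 and 0.17). On log2(FPKM + 0.1) Top2a in Tb-DOX against Tb, Pcna, and Bub1b in both were lost as well (−1.12, 0.26, −0.67 and 1.09). A higher pseudocount shrinks low genes by its construction; the cause of the other changes was not tested.

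Leaving out 1 library at a time, the number passing ran from 4 to 5 in DOX against Control, 0 to 0 in Tb-DOX against Tb, 0 to 3 in Tb against Control (3 without Tb replicate 1, 2 without Tb replicate 4), 1 to 2 in Tb-DOX against DOX (2 without DOX replicate 2 or 3, Tb replicate 5 or Tb-DOX replicate 5) and 0 to 1 for the interaction (1 without DOX replicate 1). The medians ran from 0.23 to 0.35, −0.37 to −0.09, 0.17 to 0.35, −0.21 to −0.02 and −0.67 to −0.33. Top2a in Tb against Control passed without Tb replicate 1, at 1.19.

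With the replicate number as a block the numbers passing were 4, 0, 0, 1 and 0, with medians of 0.30, −0.34, 0.31, −0.08 and −0.50. Mki67 in Tb against Control was then at 1.46 and did not pass, and Top2a there passed at 1.17. Libraries with the same number shared residuals at correlations of −0.234 to 0.21, and the labels do not say that a number marks a shared animal or day, so the libraries share only a number.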
